A study of Mus musculus with 12 samples.

Results

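Lysyl oxidases and transglutaminases are the enzymes that tie matrix proteins to one another. The 7 genes described here are Lox, Loxl1, Loxl2, Loxl3, Loxl4, Tgm1 and Tgm2, with every probe set of the array that was paired with them. They were chosen by name, with earlier results of these data known. Of the 7, 6 have at least 1 probe set of their own, 15 probe sets in all, among 18194 genes and 45101 probe sets on the array. The other, Loxl2, is represented by 2 probe sets that the annotation pairs with both Loxl2 and the predicted gene Gm21451, and those are given by their identifiers and counted for neither gene. The values come from total RNA of whole lung of C57BL/6 mice. There were 4 groups of 3 Affymetrix arrays: wild type mice given saline, wild type mice given bleomycin, FIZZ2 knockout mice given saline and FIZZ2 knockout mice given bleomycin. Both agents were delivered into the trachea, and all lungs were collected at day 21 after perfusion with PBS. Bleomycin is a cytotoxic antibiotic that is widely used to provoke lung scarring in mice. FIZZ2 is the secreted resistin-like protein RELM-beta, encoded by Retnlb, and the labels do not say how the allele was made.

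Lysyl oxidases are secreted, copper-dependent amine oxidases. They convert lysine side chains of collagens and elastin into reactive aldehydes, which then condense into the covalent bonds that give fibres their strength and make them resistant to digestion. Transglutaminases join the side chains of glutamine and lysine in a calcium-dependent reaction: TGM2 acts inside cells and on fibronectin-rich matrix, and TGM1 builds the cornified envelope of stratified epithelium. Both families are discussed in lung scarring because a crosslinked matrix is stiff.

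All values below are log2 values from the authors' RMA summary, a change is a difference between 2 group means on that scale, and a gene passed the test at a limma adjusted p under 0.05 over all 18194 genes. Array medians lay between 5.581 and 5.675. Pearson's r over all probe sets, for any pair of arrays within a group, was 0.9882 to 0.9972 (probe sets are not independent). Arrays are named below by group and replicate number. Whether the 3 arrays of a group came from different animals is not given, so each p-value speaks only of the spread among those arrays, which may be technical. Retnlb itself was dim in every group (means of 3.63 to 3.97) and offers no check of the genotype labels. All 9 markers of lung tissue that were looked for, among them Sftpc, Scgb1a1 and Ager, were brighter than Retnlb in every group, and their mean level per array ran from 11.24 to 11.85.

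In wild type lungs, bleomycin raised 5 of the 6 measured crosslinking genes and lowered none by the limma test, nor at an unadjusted p under 0.05. Lox and Tgm1 rose more than 4-fold, Loxl3 and Loxl1 rose about 2-fold, and Loxl4 rose least. Tgm2, by its probe-set signal bright in every group, did not pass (log2 change 0.10 ± 0.09, SE, adjusted p = 0.474). For comparison, 27.7% of all genes tested were called in this comparison, 13.3% higher and 14.4% lower. In knockout lungs, Tgm1 and Loxl1 were the 2 of 6 that rose, where 3.26% of all genes were called, 1.98% higher and 1.29% lower. The response to bleomycin was smaller in knockout than in wild type lungs for Lox, Loxl3 and Tgm1, tested as the difference between responses, which was lower in 3 of the 6 genes. Over all genes, 5.02% were called for this difference, 2.03% higher and 3% lower.

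**Figure D1:**
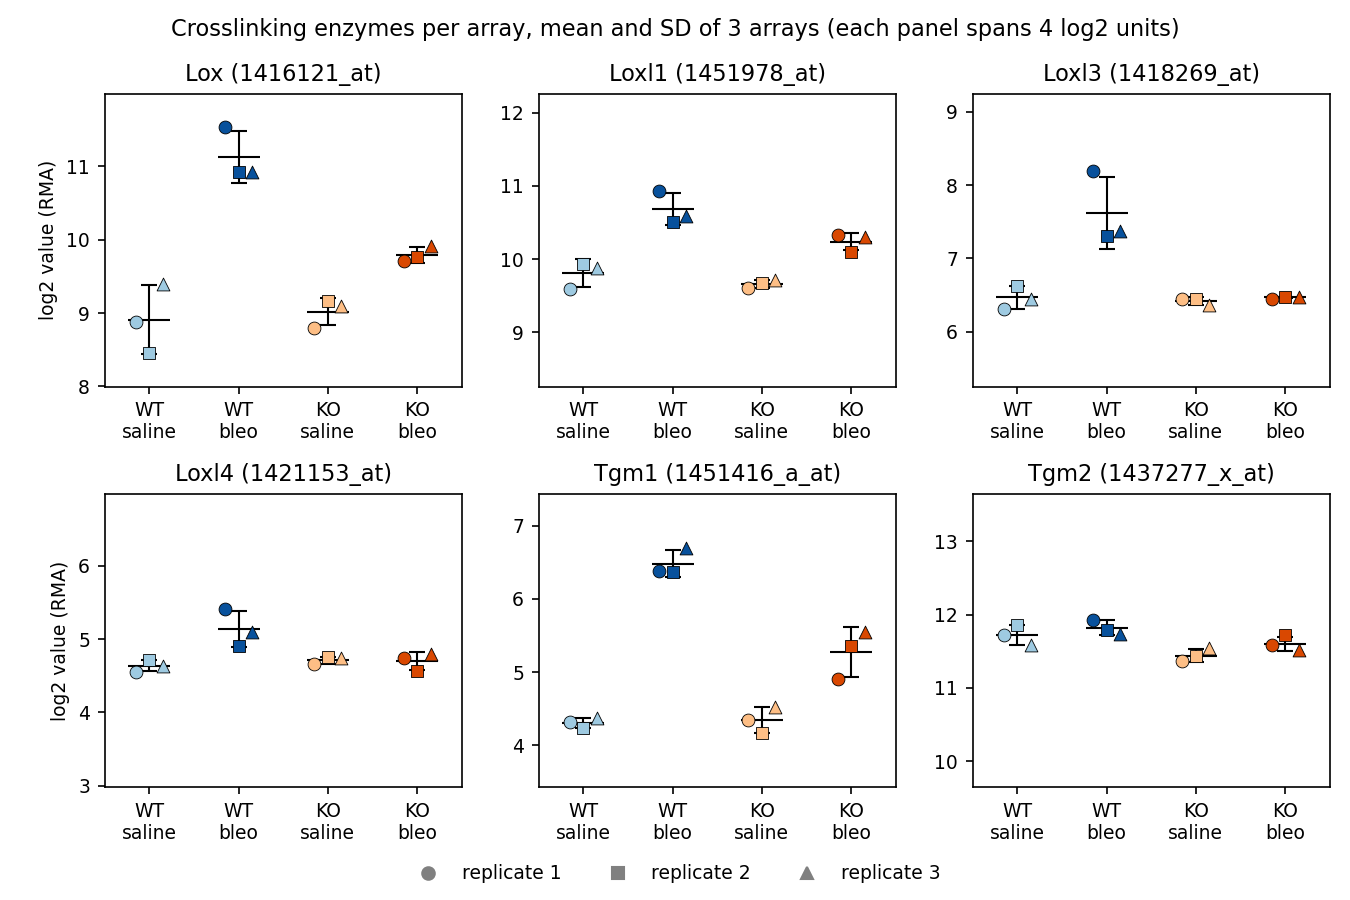
Log2 value (RMA) of the brightest probe set of each of the 6 crosslinking genes on each of the 12 arrays, in wild type (WT) and knockout (KO) lungs after saline or bleomycin (bleo), with bars for the mean and SD of 3 arrays; each panel spans 4 log2 units. The wild type bleomycin arrays of Lox (10.92 to 11.54) and Tgm1 (6.37 to 6.69) lie above all other arrays, Loxl3 is raised in wild type bleomycin lungs alone among the group means, and the Tgm2 arrays stay between 11.36 and 11.93.

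Lox encodes the founding member of the lysyl oxidase family, which acts on both collagen and elastin. Its brightest probe set, 1416121_at, read 8.88, 8.45 and 9.39 in wild type saline lungs and 11.54, 10.92 and 10.92 in wild type bleomycin lungs. In knockout lungs it read 8.80, 9.16 and 9.09 after saline and 9.71, 9.76 and 9.91 after bleomycin. Saline and bleomycin arrays did not overlap in either genotype, and the knockout bleomycin arrays lay between the saline arrays and the wild type bleomycin arrays. The rise in wild type lungs was 4.66-fold (log2 change 2.22 ± 0.21, SE, n = 3 per group, limma adjusted p = 1.02e-05), larger than that of all but 83 of the genes tested. The change in knockout lungs was 0.77 ± 0.21 and did not pass (adjusted p = 0.0704, 95% interval 0.31 to 1.23).

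The 2 Lox responses differed by -1.45 ± 0.30 (adjusted p = 0.0181). After bleomycin, Lox was 2.52-fold lower in knockout than in wild type lungs (log2 difference -1.33, adjusted p = 0.00124), and after saline the difference of 0.11 did not pass (adjusted p = 0.898). The order of the group means was therefore wild type saline (8.91 ± 0.47, SD, n = 3), knockout saline (9.02 ± 0.19), knockout bleomycin (9.79 ± 0.11) and wild type bleomycin (11.13 ± 0.36), and the 2 saline groups did not differ beyond their spread. The knockout change passed when the fit was made without wild type saline array 2 (adjusted p = 0.0361), wild type saline array 3 (0.0315) or wild type bleomycin array 1 (0.0368), and also with array medians subtracted (0.0484), with array weights (0.0131) and when the 6 knockout arrays were fitted alone (0.0105).

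The other 2 Lox probe sets gave changes of the same sign. Probe set 1448228_at rose by 2.42 in wild type lungs and changed by 0.50 in knockout lungs, where it did not pass (adjusted p = 0.473, all p-values for single probe sets being adjusted over all 45101). Its responses differed by -1.92 (adjusted p = 0.0406). Probe set 1437903_at was dim, at 3.51 to 4.25 on all 12 arrays. It rose by 0.58 in wild type lungs (adjusted p = 0.000464), and its difference between responses of -0.38 did not pass (adjusted p = 0.124).

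Loxl1 encodes the family member best known for elastic fibre renewal. Its brightest probe set, 1451978_at, read 9.59, 9.94 and 9.88 in wild type saline lungs and 10.93, 10.51 and 10.59 after bleomycin. The knockout arrays read 9.60, 9.67 and 9.71 after saline and 10.33, 10.10 and 10.30 after bleomycin. Loxl1 thus separated bleomycin from saline in both genotypes, with the knockout bleomycin arrays below those of wild type. It rose 1.83-fold in wild type lungs (log2 change 0.87 ± 0.12, adjusted p = 0.000155) and 1.5-fold in knockout lungs (0.58 ± 0.12, adjusted p = 0.0202).

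The difference between the 2 Loxl1 responses, -0.29 ± 0.17, did not pass (adjusted p = 0.348), and its 95% interval of -0.65 to 0.08 leaves room for responses of equal size and for a clearly smaller one in knockout lungs. The knockout rise lost its call without knockout saline array 1 (adjusted p = 0.0810), 2 (0.0768) or 3 (0.0538) and without knockout bleomycin array 3 (0.0750). After bleomycin Loxl1 was lower in knockout lungs by a log2 difference of -0.43 (adjusted p = 0.0261), a call that was lost without wild type bleomycin array 1 (-0.31, adjusted p = 0.103) or knockout bleomycin array 2 (-0.36, adjusted p = 0.0948), and when only these 2 groups were fitted (adjusted p = 0.0587). The second probe set, 1436063_at, rose by 0.66 in wild type lungs (adjusted p = 0.0102) and changed by 0.53 in knockout lungs without passing (adjusted p = 0.112).

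Loxl2 belongs to the branch of the family with scavenger receptor domains and is a known crosslinker of basement membrane and fibrillar collagen. The 2 probe sets that the annotation pairs with Loxl2 and Gm21451 cannot be assigned to either gene. Probe set 1431004_at read 7.12, 6.77 and 6.99 in wild type saline lungs, 9.50, 8.55 and 8.47 in wild type bleomycin lungs, 6.81, 6.69 and 6.79 in knockout saline lungs and 7.39, 7.67 and 7.86 in knockout bleomycin lungs. Its arrays did not overlap between saline and bleomycin in either genotype. It rose by 1.88 in wild type lungs (adjusted p = 0.000105), and the knockout change of 0.87 did not pass (adjusted p = 0.0695).

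Probe set 1452436_at, the dimmer of the pair, read 4.99, 4.87 and 4.79 in wild type saline lungs and 7.79, 6.10 and 6.45 after bleomycin. Its knockout arrays lay at 4.62 to 4.87 after saline and at 4.96 to 5.49 after bleomycin, above saline but below every wild type bleomycin array. The wild type rise was 1.90 (adjusted p = 0.00125), and the knockout change of 0.48 did not pass (adjusted p = 0.515). After bleomycin both probe sets were lower in knockout lungs, by log2 differences of -1.20 (adjusted p = 0.00558) and -1.58 (adjusted p = 0.00915). Their differences between responses, -1.01 and -1.41, did not pass (adjusted p = 0.126 and 0.133).

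Loxl3, a further member of the scavenger receptor branch, has 1 probe set, 1418269_at. It read 6.31, 6.63 and 6.45 in wild type saline lungs and 8.19, 7.31 and 7.37 in wild type bleomycin lungs. In knockout lungs it read 6.45, 6.45 and 6.36 after saline and 6.45, 6.47 and 6.48 after bleomycin. Every wild type bleomycin array lay above every other array, and the knockout arrays hardly moved. Loxl3 rose 2.23-fold in wild type lungs (log2 change 1.16 ± 0.18, adjusted p = 0.000374).

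In knockout lungs Loxl3 changed by 0.05 ± 0.18 (adjusted p = 0.920, 95% interval -0.33 to 0.44). The responses differed by -1.10 ± 0.25 (adjusted p = 0.0279), and after bleomycin the knockout level was lower by -1.15 (adjusted p = 0.00103). The call of the difference between responses was lost without wild type saline array 1 (adjusted p = 0.0663) or 3 (0.0517), knockout saline array 1 (0.0706), 2 (0.0629) or 3 (0.0518), or knockout bleomycin array 1 (0.0661) or 2 (0.0524). The size of the difference stayed between -1.26 and -0.82 over the 12 fits that each left out 1 array. Wild type saline (6.47 ± 0.16, SD, n = 3), knockout saline (6.42 ± 0.05) and knockout bleomycin (6.47 ± 0.01) had nearly the same mean. The knockout bleomycin arrays did not overlap the knockout saline arrays, but the change of 0.05 did not pass. Wild type bleomycin stood above these 3 groups (7.62 ± 0.49).

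Loxl4, the fourth of the LOX-like enzymes, gave a dim signal. Its brighter probe set, 1421153_at, read 4.55, 4.71 and 4.64 in wild type saline lungs, 5.41, 4.91 and 5.10 in wild type bleomycin lungs, 4.66, 4.75 and 4.74 in knockout saline lungs and 4.74, 4.57 and 4.80 in knockout bleomycin lungs. The wild type bleomycin arrays were the highest, and the knockout groups overlapped each other. The rise in wild type lungs was 1.42-fold (log2 change 0.51 ± 0.11, adjusted p = 0.00463), and the knockout change was -0.01 ± 0.11 (adjusted p = 0.978).

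The 2 Loxl4 responses differed by -0.52 ± 0.16, which did not pass (adjusted p = 0.0801) except without wild type bleomycin array 2 (adjusted p = 0.0263) and with array weights (0.0260). After bleomycin Loxl4 was lower in knockout lungs by -0.44 (adjusted p = 0.0195), a call lost without wild type bleomycin array 1 (-0.30, adjusted p = 0.0687) or knockout bleomycin array 2 (-0.37, adjusted p = 0.0746) and with only these 2 groups in the fit (0.0729). The second Loxl4 probe set disagreed: 1450134_at changed by 0.17 in wild type lungs and did not pass (adjusted p = 0.345). The 250 bases upstream of the annotated start of Loxl4 are shown because Loxl4 is the one crosslinking gene for which the RefSeq promoter table used here (GRCm38.p6) holds a window lying wholly outside the annotated gene. They lie at chr19:42612807-42613056, are printed 5′ to 3′ on the minus strand, which is the strand of the gene, and carry in capitals each match to 1 of 3 searched motifs.
Loxl4 upstream: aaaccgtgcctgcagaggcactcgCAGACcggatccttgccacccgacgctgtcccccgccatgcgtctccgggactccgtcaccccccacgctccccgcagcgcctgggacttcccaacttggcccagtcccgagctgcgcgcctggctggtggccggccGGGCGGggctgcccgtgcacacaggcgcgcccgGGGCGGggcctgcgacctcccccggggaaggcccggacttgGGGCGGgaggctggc
The window holds 3 matches to the Sp1 motif GGGCGG and 1 match to the SMAD motif CAGAC, and none to the AP-1 motif TGANTCA, each searched on both strands and without overlap between motifs. Over the 250 upstream bases of all 32851 promoters in the table, 32.7% hold the Sp1 motif, 42.2% the SMAD motif and 6.75% the AP-1 motif. These are descriptions of letters and not sites of binding.

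Tgm1 encodes the membrane-anchored transglutaminase of stratified epithelium. Its only probe set, 1451416_a_at, read 4.32, 4.24 and 4.38 in wild type saline lungs and 6.38, 6.37 and 6.69 in wild type bleomycin lungs. The knockout arrays read 4.35, 4.17 and 4.53 after saline and 4.90, 5.35 and 5.55 after bleomycin. The 4 groups formed 3 separate levels, with the 2 saline groups overlapping, knockout bleomycin above them and wild type bleomycin highest. The saline values were low, not far above those of Retnlb, so the fold may understate the change.

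Tgm1 rose 4.48-fold in wild type lungs (log2 change 2.16 ± 0.15, adjusted p = 1.32e-06), a rise exceeded by 93 of the genes tested, and 1.89-fold in knockout lungs (0.92 ± 0.15, adjusted p = 0.00638). The responses differed by -1.24 ± 0.21 (adjusted p = 0.00752). After bleomycin the knockout level was 2.31-fold lower (log2 difference -1.21, adjusted p = 0.000261), and after saline the difference was 0.03 (adjusted p = 0.963). These 4 calls held in each of the 12 fits that left out 1 array. The difference between responses ran from -1.39 to -1.06 over those fits.

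Tgm2 encodes tissue transglutaminase, the widely expressed member of its family. Its brightest probe set, 1437277_x_at, read 11.72, 11.86 and 11.58 in wild type saline lungs, 11.93, 11.79 and 11.74 in wild type bleomycin lungs, 11.36, 11.43 and 11.54 in knockout saline lungs and 11.58, 11.72 and 11.52 in knockout bleomycin lungs. Saline and bleomycin arrays overlapped in both genotypes. The change with bleomycin was 0.10 ± 0.09 in wild type lungs (95% interval -0.10 to 0.30) and 0.16 ± 0.09 in knockout lungs (adjusted p = 0.391, 95% interval -0.04 to 0.36). A doubling is outside both intervals.

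The wild type arrays of Tgm2 lay above the knockout arrays after saline and after bleomycin alike, by 0.28 and 0.22 on the log2 scale, and neither difference passed (adjusted p = 0.290 and 0.144). With array weights the saline difference of -0.28 passed (adjusted p = 0.0256). Of the other 5 Tgm2 probe sets, 1455900_x_at and 1433428_x_at gave nearly the same readings (11.21 to 11.77), and 1417500_a_at lay between 10.63 and 11.39. Probe set 1426004_a_at changed most in wild type lungs, by 0.46, without passing (adjusted p = 0.0824), and changed by 0.03 in knockout lungs. Probe set 1438942_x_at was dim, at 3.28 to 3.86.

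**Figure D2:**
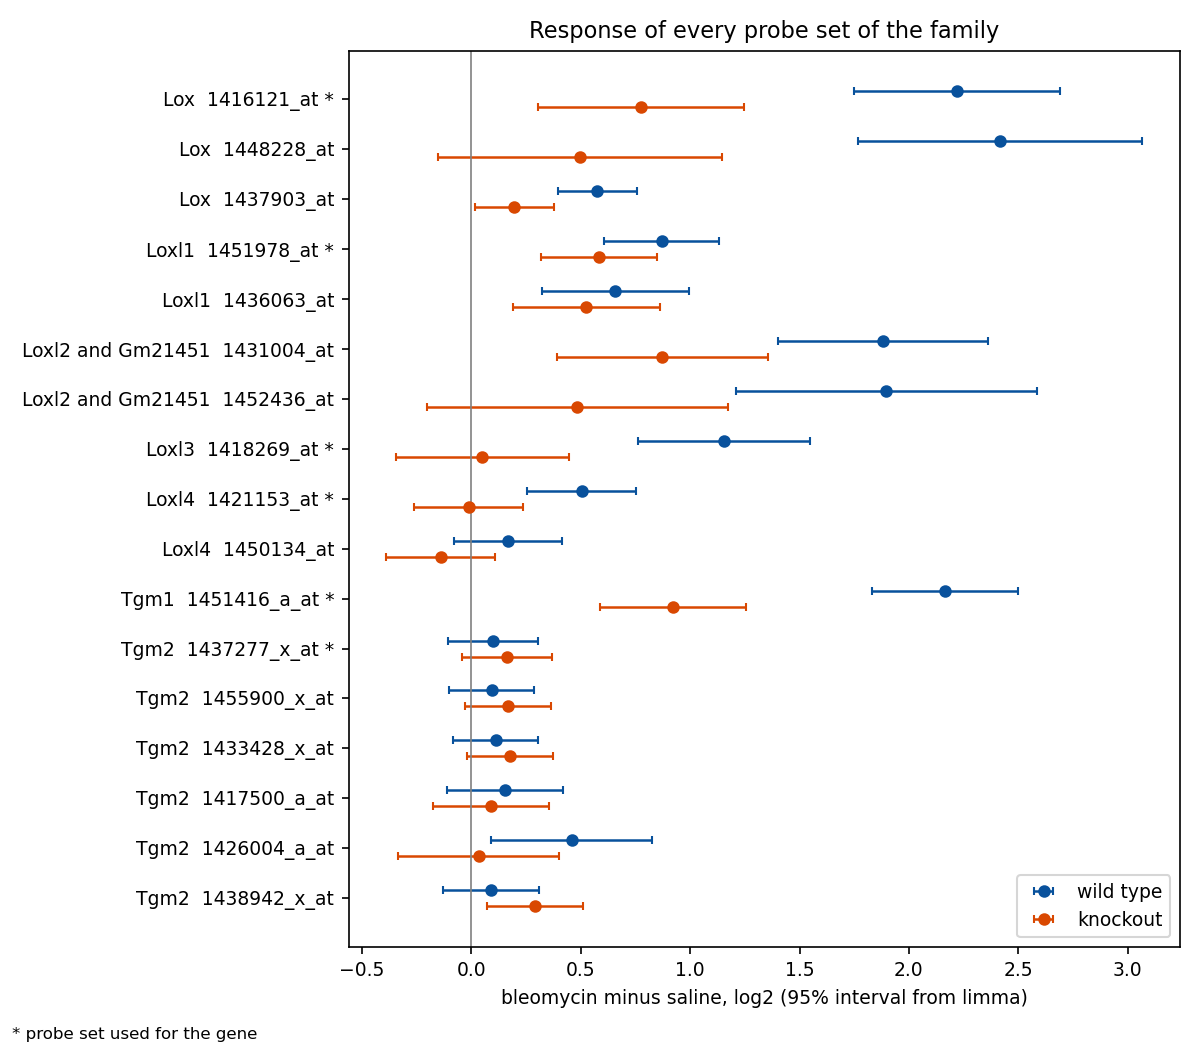
Log2 change from saline to bleomycin with its 95% interval from limma, in wild type (blue) and knockout (orange) lungs, for each of the 15 probe sets of the 6 genes and the 2 probe sets paired with Loxl2 and Gm21451; a star marks the probe set used for the gene. The wild type points of Lox 1416121_at (2.22), Lox 1448228_at (2.42) and Tgm1 (2.16) lie farthest to the right, and the Tgm2 intervals of both genotypes lie below 1.

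Over the 15 probe sets of the 6 genes, saline and bleomycin arrays did not overlap in 9 in wild type and in 9 in knockout lungs, in each case with bleomycin higher. Over all probe sets, the bleomycin arrays lay wholly above the saline arrays in 13.9% in wild type and in 12.2% in knockout lungs. Arrays can separate by very little, as those of Loxl3 did in knockout lungs with a change of 0.05. By limma's test of every probe set, 8 of the 15 rose in wild type lungs (9.37% of all probe sets) and 2 in knockout lungs (0.949%). After bleomycin, the wild type and knockout arrays did not overlap in 11 of the 15, with wild type higher in all 11 (12.6% of all probe sets separated this way), and 7 of the 15 were called lower in knockout lungs by limma (4.69% of all). After saline they did not overlap in 3, all of Tgm2 and again with wild type higher, where 8.44% of all probe sets separated this way. None of the 15 was called lower in knockout lungs after saline by limma (0.113% of all). By gene, 5 of 6 were lower in knockout than in wild type lungs after bleomycin (of all genes 15.4% were called, 7.52% higher and 7.89% lower) and none of 6 passed after saline in limma (of all genes 0.489% were called, 0.297% higher and 0.192% lower). The count after saline at an unadjusted p under 0.05 was 1, that of Tgm2.

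One library was often the highest among these genes. Wild type bleomycin replicate 1 was the highest of the 12 arrays in 12 of the 15 probe sets and in both probe sets shared by Loxl2 and Gm21451. Its lead over the next wild type bleomycin array was 0.61 for Lox, 0.34 for Loxl1, 0.82 for Loxl3, 0.30 for Loxl4 and 1.34 for 1452436_at. Tgm1 was an exception, with array 3 the highest. In the Tgm2 probe sets where wild type bleomycin replicate 1 was highest of the 12, its lead was only 0.00 to 0.20. The share of all probe sets in which this library was the highest was not counted, so its lead may not be particular to these genes. Without that library, the wild type changes were 2.02 for Lox, 0.74 for Loxl1, 0.87 for Loxl3, 0.37 for Loxl4 and 2.21 for Tgm1, and all 5 kept their call. The differences between responses of Lox (-1.24, adjusted p = 0.0300), Loxl3 (-0.82, adjusted p = 0.00584) and Tgm1 (-1.29, adjusted p = 0.0106) kept theirs too.

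The genes whose 12-array pattern was closest to that of each enzyme were found by the root mean square difference between log2 values, each gene centred on its own mean. For Lox they were Tfpi2 (0.198), a protease inhibitor, Ankrd37 (0.241) and Ccdc80 (0.248), against a root mean square of 0.922 for the Lox pattern itself. For Loxl1 they were Cmtm3 (0.107), Zfp385a (0.122) and the chemokine Cxcl16 (0.125). For Loxl3 they were Cd248 (0.097), the surface protein endosialin of perivascular and fibroblastic cells, Gm13889 (0.119) and Pdlim7 (0.128). The closest to Tgm1 were fibronectin, Fn1 (0.161), S100a14 (0.181) and Eda2r (0.192). The closest to Loxl4 were 3110082I17Rik (0.069), R3hcc1 (0.079) and Hsd3b7 (0.079), and to Tgm2 were Ctr9 (0.057), Vps45 (0.064) and Nckipsd (0.068), against root mean squares of 0.233 for Loxl4 and 0.167 for Tgm2 themselves.

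Beside the lists of genes that follow, 13.3% of all genes were called higher and 14.4% lower in wild type lungs. In knockout lungs these shares were 1.98% and 1.29%, and for the difference between responses 2.03% and 3%. The substrates of lysyl oxidases were examined next. Of 10 genes, 9 fibrillar collagen chains and elastin, 8 rose in wild type lungs and none fell in limma (8 higher and 1 lower at an unadjusted p under 0.05), with a median log2 change of 1.87 against -0.04 over all genes. In knockout lungs 5 of them rose (Col1a1, Col1a2, Col3a1, Col5a2 and Eln), with a median of 0.63, and the response was smaller in knockout lungs for 5 (median difference -1.13, against 0.04 over all genes). Eln, which encodes elastin, lay at 8.78 to 9.37 in wild type saline lungs and at 12.36 to 12.60 after bleomycin, a rise of 3.31 ± 0.19 (adjusted p = 3.83e-07). In knockout lungs Eln rose from 8.91 to 9.16 up to 10.60 to 11.40, by 2.01 ± 0.19 (adjusted p = 0.000267), and its responses differed by -1.30 (adjusted p = 0.0179).

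Col1a1, a chain of type I collagen, rose by 2.45 in wild type and by 1.17 in knockout lungs, and Col5a2, a chain of the type V collagen that starts fibrils, by 2.40 and 1.41. Their differences between responses were -1.27 (adjusted p = 0.0205) and -1.0 (adjusted p = 0.0190). Col5a3 rose by 2.60 in wild type lungs and changed by 0.48 in knockout lungs without passing (adjusted p = 0.432), a difference of -2.13 (adjusted p = 0.0135), and Col5a1 rose by 1.94 against a knockout change of 0.54 that did not pass (adjusted p = 0.179), a difference of -1.40 (adjusted p = 0.0183). The difference calls were lost without knockout bleomycin array 1 for Col1a1 (adjusted p = 0.0592), Col5a1 (0.0505) and Col5a2 (0.0520), without knockout saline array 1 for Col1a1 (0.0517) and Col5a2 (0.0561), without knockout saline array 2 for Col1a1 (0.0517) and without wild type saline array 1 for Col5a2 (0.0503). With its probe sets averaged, Col5a3 kept both calls at smaller sizes, 1.3 in wild type lungs and a difference of -1.05 (adjusted p = 0.0445). The Col5a1 change in knockout lungs passed without wild type bleomycin array 1 (0.00495) and with only the knockout arrays (0.0142).

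**Figure D3:**
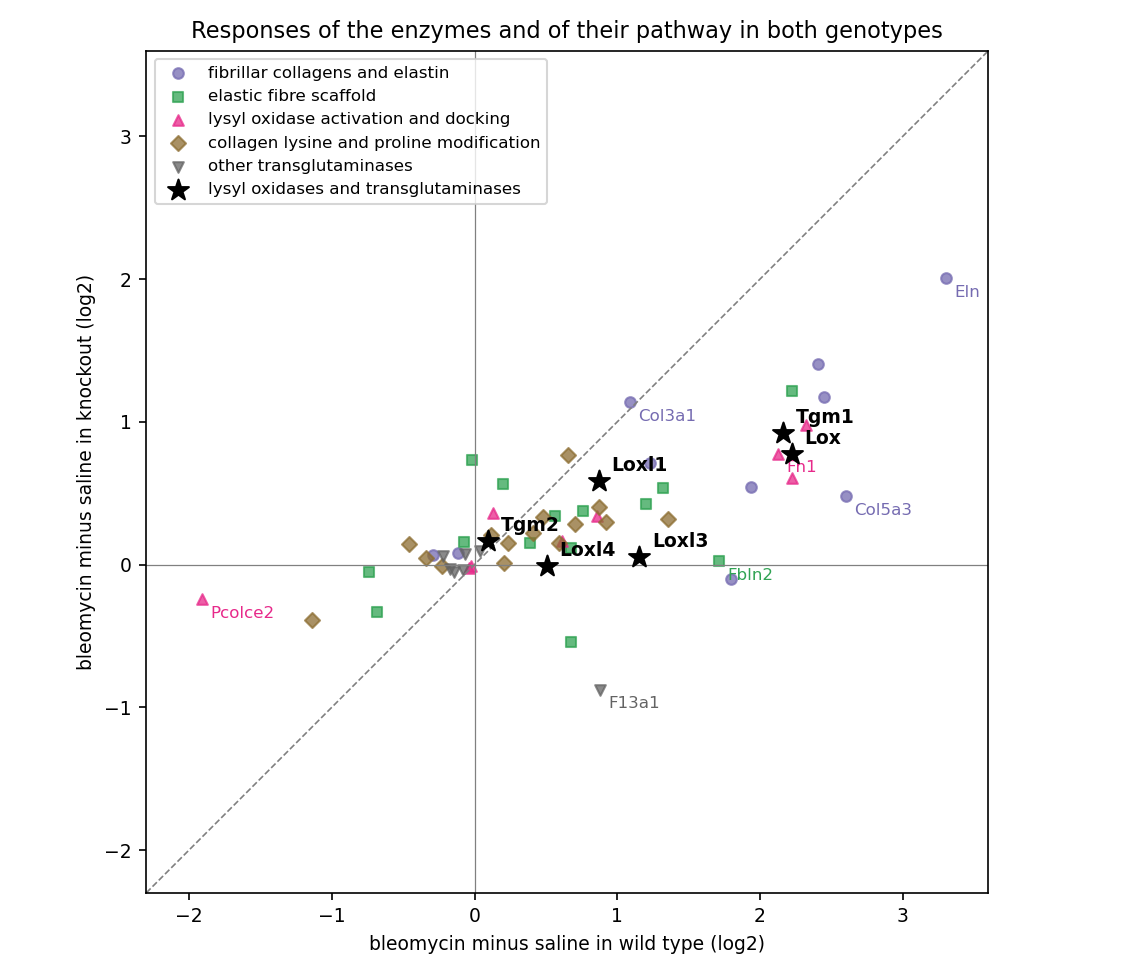
Log2 change from saline to bleomycin in knockout lungs (vertical axis) against that in wild type lungs (horizontal axis) for the 6 crosslinking genes (stars) and for genes of 5 lists. The lists are substrates, scaffold, activators, modifying enzymes, and other transglutaminases with related proteins. The dashed line marks equal responses. Lox (2.22 and 0.77) and Tgm1 (2.16 and 0.92) lie below the line, as does Eln (3.31 and 2.01), and F13a1 lies at 0.88 and -0.88.

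The scaffold on which elastin is laid down was measured through 14 genes of microfibrils and fibulins. In wild type lungs 9 rose and 2 fell (Efemp1 by 0.74 and Ltbp4 by 0.68; median of all 14, 0.62), and in knockout lungs 4 rose (Ltbp2, Ltbp3, Mfap4 and Mfap5; median 0.25). Mfap4 was the 1 scaffold gene with a larger response in knockout lungs (difference 0.75). Ltbp2, a latent TGF-beta binding protein of microfibrils, rose by 2.22 in wild type and 1.21 in knockout lungs, and the difference did not pass (adjusted p = 0.0638), except without wild type bleomycin array 3 (0.0291) or knockout bleomycin array 2 (0.0330). Fbln2, fibulin-2, rose from 6.62 to 7.09 up to 8.13 to 9.37 in wild type lungs (log2 change 1.71, adjusted p = 0.000244). In knockout lungs it lay at 6.74 to 6.90 after saline and 6.75 to 6.97 after bleomycin, and its responses differed by -1.69 (adjusted p = 0.0185), a call lost without knockout saline array 1 or knockout bleomycin array 1 (adjusted p = 0.0509 for both).

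Mfap5, a microfibril protein, rose by 1.32 in wild type and 0.54 in knockout lungs (difference -0.78, adjusted p = 0.0264). Its knockout rise was lost without knockout saline array 1 (adjusted p = 0.0915) or 3 (0.129), knockout bleomycin array 2 (0.0905) or 3 (0.130) or wild type bleomycin array 2 (0.0508) and with only the knockout arrays (0.0608), and its difference without any of 5 arrays (knockout saline 1 and 2, knockout bleomycin 1 and 2, wild type saline 1; adjusted p = 0.0514 to 0.0702). Emilin2, an elastin interface protein, rose by 0.68 in wild type lungs and changed by -0.54 in knockout lungs without passing (adjusted p = 0.156), a difference of -1.22 (adjusted p = 0.0268). Its wild type call was lost without wild type bleomycin array 1 (log2 change 0.43, adjusted p = 0.0689) or wild type saline array 1 (0.0532) or 3 (0.0769) and with only the wild type arrays (0.0664), and its difference without any of 6 arrays (knockout saline 1 and 3, knockout bleomycin 1 and 2, wild type saline 1 and 3; adjusted p = 0.0541 to 0.0698). With only the knockout arrays its knockout change passed (0.0193).

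Of 9 measured genes that activate lysyl oxidases or hold them on the matrix, 5 rose (Bmp1, Fn1, Postn, Fmod and Thbs1) and 1 fell in wild type lungs, and 1 rose in knockout lungs. Fn1, fibronectin, read 10.86 to 11.02 in wild type saline lungs and 12.91 to 13.25 after bleomycin, and 10.87 to 11.03 and 11.43 to 11.98 in knockout lungs. It rose by 2.13 ± 0.13 (adjusted p = 4.61e-07) and 0.78 ± 0.13 (adjusted p = 0.00677), and the responses differed by -1.35 (adjusted p = 0.00298); with its probe sets averaged the knockout rise did not pass (adjusted p = 0.0656). Thbs1, thrombospondin-1, rose by 2.23 in wild type lungs and changed by 0.61 in knockout lungs without passing (adjusted p = 0.288). The Thbs1 difference of -1.62 (adjusted p = 0.0402) was lost in 8 of the 12 fits that left out 1 array (adjusted p = 0.0561 to 0.101; held without wild type saline 1 or 3, wild type bleomycin 2 or knockout bleomycin 3) and with eBayes with trend and robust (0.0738). Pcolce2, an enhancer of procollagen C-proteinase, went the other way: it fell by 1.91 in wild type lungs (adjusted p = 5.63e-06), lay at 11.52 to 11.78 and 11.13 to 11.68 in knockout lungs, and differed between responses by 1.66 (adjusted p = 0.00398).

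Enzymes that hydroxylate or glycosylate collagen lysines and prolines, and chaperones that go with them, act before lysyl oxidases. Of 15 measured, 8 rose and 2 fell (P3h2 and Colgalt2) in wild type lungs and 1 rose in knockout lungs (median changes 0.41 and 0.20). That gene was Serpinh1, the collagen chaperone HSP47, with a knockout rise of 0.77. P4ha3, a prolyl 4-hydroxylase subunit with a dim signal, rose from 3.05 to 3.43 up to 4.40 to 4.87 in wild type lungs (1.35, adjusted p = 6.6e-06), and its knockout change of 0.32 did not pass (adjusted p = 0.190). The P4ha3 difference was -1.04 (adjusted p = 0.00698). Colgalt1, a collagen galactosyltransferase, rose by 0.71 in wild type lungs (adjusted p = 5.06e-05), and its difference of -0.43 did not pass (adjusted p = 0.0565), but passed without wild type saline array 2 (0.0290) and under 4 other settings (0.00958 to 0.0473). Colgalt2, its relative, fell by 1.14 in wild type lungs (adjusted p = 6.65e-05), and its difference of 0.75 (adjusted p = 0.0465) was lost without any 1 of 10 arrays (adjusted p = 0.0677 to 0.105; held without wild type bleomycin 2 or knockout bleomycin 3).

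Lysyl oxidases need copper, and 9 genes of general copper handling in the cell were measured. In wild type lungs 2 rose (Atox1 and Commd1) and 3 fell (Atp7b, Slc31a1 and Cox17), and in knockout lungs none passed in limma (2 were higher at an unadjusted p under 0.05). Atp7b, a copper-exporting ATPase, fell from 8.67 to 9.0 down to 6.79 to 7.78 in wild type lungs (log2 change -1.53, adjusted p = 0.000111), and in knockout lungs it lay at 8.46 to 8.59 and 8.07 to 8.56. Its responses differed by 1.25 (adjusted p = 0.0268), a call lost without any 1 of 6 arrays (all 3 knockout saline arrays, knockout bleomycin 1, wild type saline 1 and 2; adjusted p = 0.0502 to 0.0702). Slc31a1, the copper importer CTR1, fell by 0.45 in wild type lungs (adjusted p = 0.00481) and differed between responses by 0.65 (adjusted p = 0.0246), a call lost without knockout saline array 1 (0.0692) or knockout bleomycin array 1 (0.0619). Atox1, a copper chaperone, rose by 0.45 (adjusted p = 0.0102). With a gene's probe sets averaged, Atp7b fell by 0.80 in wild type lungs (adjusted p = 0.000479), and its difference of 0.63 did not pass (0.0628). The same averaging ended the wild type calls of Slc31a1 (-0.27, adjusted p = 0.0696) and Atox1 (0.21, adjusted p = 0.0558) and the differences of Slc31a1 (0.43, adjusted p = 0.106), Colgalt2 (0.0518) and Col1a1 (0.0734). For Fbln2 it gave a wild type rise of 0.98 and a difference of -0.91 that did not pass (adjusted p = 0.0708).

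Among 7 measured genes of a list of other transglutaminases and related proteins, F13a1 alone passed any test. It encodes the A subunit of coagulation factor XIII, which macrophages also make. F13a1 lay at 7.86 to 8.0 in wild type saline lungs, 8.41 to 9.42 in wild type bleomycin lungs, 8.66 to 9.20 in knockout saline lungs and 7.89 to 8.09 in knockout bleomycin lungs. The order of saline and bleomycin was thus opposite in the 2 genotypes. F13a1 rose by 0.88 ± 0.21 in wild type lungs (adjusted p = 0.00741) and fell by 0.88 ± 0.21 in knockout lungs (adjusted p = 0.0430), and the responses differed by -1.76 ± 0.30 (adjusted p = 0.00747). Without wild type bleomycin array 1 the wild type rise was 0.58 (adjusted p = 0.0131). The knockout fall was lost in 10 of the 12 fits that left out 1 array (adjusted p = 0.0515 to 0.179; held without wild type bleomycin 1 or 3). It was also lost with eBayes with trend and robust (0.0518), repeated quantile normalization (0.0512) and its probe sets averaged (0.0513).

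Over the same arrays, the mean of 8 macrophage markers ran from 8.52 to 8.86 in wild type saline, 9.41 to 9.77 in wild type bleomycin, 8.75 to 8.92 in knockout saline and 9.24 to 9.34 in knockout bleomycin lungs. None of these markers was as dim as Retnlb, and their part in the F13a1 result was not tested. In limma 5 of these 8 markers rose and 0 fell in wild type lungs, and 4 rose and 0 fell in knockout lungs. The response was smaller in knockout lungs for 3 of the 8 and larger for 0. After bleomycin, 3 were lower and 1 was higher in knockout than in wild type lungs. Tgm3, Tgm4, Tgm5, Tgm6, F13b and Epb42 changed by -0.22 to 0.10 and did not pass in either genotype, except Tgm5 in wild type lungs without wild type bleomycin array 2 (adjusted p = 0.0176) and Tgm6 in wild type lungs with array weights (0.0472). Tgm7 was not analysed here. Of the other copper amine oxidases, Aoc1 and Aoc3 did not pass (wild type changes 0.45 and -0.10, knockout changes -0.08 and -0.91), and the Aoc3 change in knockout lungs passed without knockout saline array 3 (adjusted p = 0.0402) or knockout bleomycin array 3 (0.0454) and with array weights (0.0400).

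Partners of TGM2 at the cell surface and in the matrix were followed through 10 genes, of which 6 rose and none fell in limma in wild type lungs (7 higher and 0 lower at an unadjusted p under 0.05) and 1, Fn1, rose in knockout lungs. Itga5, the integrin chain that binds fibronectin, rose by 1.13 (adjusted p = 0.000204; 0.64 with its probe sets averaged), and Adgrg1, the adhesion receptor GPR56, by 0.45 (adjusted p = 0.00857). The difference between responses passed for Fn1, and for Itga5 (-0.68, adjusted p = 0.104) only without wild type bleomycin array 2 (0.0156). Of 13 cornified envelope genes, the textbook substrates of TGM1, 1 rose and 3 fell in wild type lungs. Of all genes, 13.3% were called higher and 14.4% lower there. Sprr1a, a small proline-rich envelope precursor, rose from 4.39 to 4.60 up to 6.30 to 7.24 in wild type lungs (2.21, adjusted p = 6.89e-06) and from 4.26 to 4.49 up to 5.19 to 5.76 in knockout lungs (1.2, adjusted p = 0.00740), and it was the 1 gene of this list to rise in either genotype.

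The Sprr1a difference of -1.01 did not pass (adjusted p = 0.0607), except without wild type bleomycin array 2 (0.0233) and with array weights (0.0259). The genes that fell in wild type lungs were Ppl (periplakin, by 0.88), Dsp (desmoplakin, by 0.59) and Scel (sciellin, by 0.58). The Dsp call was lost with its probe sets averaged (-0.33, adjusted p = 0.157). Beside Tgm1, the mean of 7 keratin markers of basal and simple epithelium ran from 6.92 to 7.0 in wild type saline, 7.21 to 7.63 in wild type bleomycin, 6.78 to 6.98 in knockout saline and 6.94 to 7.18 in knockout bleomycin lungs, with Krt17 as dim as Retnlb in every group. Its part in the Tgm1 result was not tested.

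TGF-beta signalling and the response to low oxygen are the textbook inducers of Lox. Of 11 TGF-beta pathway genes, 7 rose and 3 fell (Tgfbr3, Smad4 and Smad7) in wild type lungs, and 3 rose and 2 fell (Tgfbr3 and Smad7) in knockout lungs. The ligands Tgfb2 and Tgfb3 rose by 0.92 and 0.88 in wild type and by 0.46 and 0.40 in knockout lungs, and the receptor Tgfbr1 by 0.81 and 0.54. The knockout call of Tgfb2 was lost without knockout saline array 2 (adjusted p = 0.0867) or 3 (0.0558) or knockout bleomycin array 2 (0.0578), and that of Tgfb3 without any 1 of 7 arrays (all 3 knockout saline arrays, knockout bleomycin 2 and 3, wild type bleomycin 2 and 3; adjusted p = 0.0517 to 0.153). The Tgfbr1 call in knockout lungs was lost with its probe sets averaged (log2 change 0.36, adjusted p = 0.430).

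Tgfbr2, the other chain of that receptor, rose by 0.58 in wild type lungs (adjusted p = 4.85e-05), and its responses differed by -0.46 (adjusted p = 0.0174), a call lost without knockout saline array 1 (0.0504) and with its probe sets averaged (0.148). Of 10 genes of the hypoxia response, 3 rose (Hif1a, Egln3 and Slc2a1) and 2 fell (Egln1 and Epas1) in wild type lungs, and none passed in knockout lungs in limma (1 higher and 2 lower at an unadjusted p under 0.05). Hif1a, the oxygen-regulated transcription factor subunit, rose by 0.70 in wild type lungs (adjusted p = 7.05e-05) and differed between responses by -0.55 (adjusted p = 0.0238), a call lost without knockout saline array 1 (0.0578), 2 (0.0587) or 3 (0.0516) or knockout bleomycin array 1 (0.0574) and with its probe sets averaged (0.0520). The glucose transporter Slc2a1 rose by 0.57 (0.38 with array weights), and Egln1, a prolyl hydroxylase that marks HIF for destruction, fell by 0.46; the Egln1 call was lost with its probe sets averaged (-0.19, adjusted p = 0.114).

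Whole-lung RNA cannot tell fewer cells of a type from less RNA per cell, and markers of several cell types differed between the groups, in different directions. The mean of 10 fibroblast markers ran from 9.06 to 9.29 in wild type saline and 9.39 to 9.58 in wild type bleomycin lungs, and from 9.20 to 9.38 and 9.06 to 9.31 in knockout lungs. In wild type lungs 5 of these markers rose and 3 fell, and in knockout lungs none of 10 passed in limma (1 was lower at an unadjusted p under 0.05). The response was smaller in knockout lungs for 1 of the 10, Cdh11, and larger for 0. After bleomycin, 3 were lower and 1 was higher in knockout than in wild type lungs (of all genes, 7.89% lower and 7.52% higher). The activated-fibroblast marker Fap rose by 1.17 and Cdh11 by 0.85 in wild type lungs, while Tcf21, a marker of resident lipofibroblasts, fell by 1.18. The mean of 7 smooth muscle markers overlapped between wild type saline (9.23 to 9.68) and bleomycin lungs (9.32 to 9.98), and it was 9.16 to 9.85 in knockout saline and 8.72 to 8.98 in knockout bleomycin lungs. None of the 7 passed in wild type lungs in limma (2 were higher at an unadjusted p under 0.05), and 2 fell in knockout lungs. After bleomycin, 4 of the 7 were lower and 0 higher in knockout than in wild type lungs. The mean of 8 cardiac muscle markers, all of which fell in wild type lungs, went from 9.16 to 9.77 down to 7.24 to 7.95 there and spread from 7.19 to 9.49 in knockout bleomycin lungs. The mean of 7 endothelial markers was lower after bleomycin in wild type lungs (10.91 to 11.14 after saline, 10.69 to 10.74 after bleomycin), where 4 of 7 fell, and overlapped in knockout lungs (11.05 to 11.13 and 10.75 to 11.07), where 2 of 7 fell. Of the 9 lung tissue markers, 3 fell in wild type lungs (Sftpb, Sftpa1 and Foxj1) and none passed in knockout lungs in limma (1 was higher at an unadjusted p under 0.05). The part of these cell markers in the results on Lox, Loxl1, Loxl3, Loxl4 and Tgm1 was not tested.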

How the data were processed

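Per the labels' protocols, biotinylated cRNA from total lung RNA was hybridized to Affymetrix arrays. The authors deposited log2 values made with RMA; per the submitters' processing notes the tools were affy, RMA and limma, with no version given. Of 45101 probe sets, 34958 are paired with 1 gene (34754 matched by Entrez identifier to a mouse gene table), 932 with several and 9211 with none. Each of the 18194 genes was tested by its brightest probe set on average (9012 genes have more than 1), with no filter on dim signal. The 3 arrays per group limit the precision.

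All 12 arrays entered 1 limma fit (limma 3.58.1, R 4.3.3) with a mean per group, then eBayes (8 residual and 4.86 prior degrees of freedom) and Benjamini-Hochberg adjustment over all genes; single probe sets were tested in a second fit over all of them. There were 5 comparisons: the response to bleomycin in either genotype, the difference of the 2 responses, and genotype after either treatment. They share arrays and are not independent. The procedure was tested on simulated data.

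The 7 genes and the lists were chosen with earlier results of these data known. Named from each list were up to 3 genes with the smallest p among those called in wild type lungs and up to 3 among those called for the difference. All measured genes listed with the other transglutaminases and copper amine oxidases were named too, as were the 3 closest patterns per gene. Genes named to complete a small count were chosen after their values were seen and were not run through the alternatives. Alternatives were array medians subtracted, repeated quantile normalization, a mean of at least 5, averaged probe sets, every probe set, eBayes with trend and robust, array weights, only the groups compared, the replicate number as a block, and each array left out. The labels do not say whether replicate numbers pair the arrays. Of 18 same-numbered pairs, 2 deviated together with r over 0.1, which cannot settle this with 3 arrays a group. The labels name no genome build, so no coordinates are given except those of the Loxl4 window, which are the RefSeq table's.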

Additional observations from a re-analysis of the deposited data

Results flagged for a closer look

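The response to bleomycin differed between wild type and knockout lungs, by the test of the difference itself (knockout minus wild type, log2), for 3 of the crosslinking genes: Lox (-1.45), Loxl3 (-1.10) and Tgm1 (-1.24). The Loxl3 call was lost in 7 of the 12 fits that left out 1 array, and those of Lox and Tgm1 held in all 12. The genes named from the other lists follow, cell markers apart. Among them the response was smaller in knockout lungs for the substrates Eln (-1.30), Col1a1 (-1.27), Col5a1 (-1.40), Col5a2 (-1.0) and Col5a3 (-2.13). The same held for the scaffold and docking genes Fbln2 (-1.69), Mfap5 (-0.78), Emilin2 (-1.22), Fn1 (-1.35) and Thbs1 (-1.62), and for P4ha3 (-1.04), Tgfbr2 (-0.46) and Hif1a (-0.55). The difference was positive for Pcolce2 (1.66), Colgalt2 (0.75), Atp7b (1.25) and Slc31a1 (0.65), which fell in wild type lungs. It was also positive for the scaffold gene Mfap4, which rose in knockout lungs and was not among the scaffold genes that fell in wild type lungs. For F13a1 it was -1.76, with opposite signs in the 2 genotypes. Of the fibroblast markers named above, Cdh11 also had a smaller response in knockout lungs by this test. These genes were named partly because they passed this test, so their number describes the choice. With 3 arrays in each group, no single array was tested as an outlier.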

How the results depend on the processing

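No change of a crosslinking gene turned its sign and passed in any alternative. Of 304 values under the settings other than leaving out 1 array, 292 stayed on their side of the threshold, 7 lost a call and 5 gained one. These 304 include fits of only the groups compared and the single probe sets of each gene. Of 360 values with 1 array left out, 341 stayed, 15 lost a call and 4 gained one. For 39 named genes outside the family, 2151 of 2283 values stayed, 102 lost a call and 30 gained one (settings chosen after seeing the data). Each of these totals includes results that were not called in the main fit and so could not lose a call. Over single arrays left out, the count of crosslinking genes called ran from 1 to 3 in knockout lungs and from 2 to 4 for the difference. For genotype after bleomycin it ran from 3 to 5, and it was 3 with only the groups compared. After saline it was 1 with array weights, which gave wild type saline replicate 1 a weight of 5.13 and the other arrays 0.34 to 1.43. When every probe set was tested, 8349 of 45101 probe sets were called in wild type lungs, where the main fit called 5045 of 18194 genes. These counts have different units and cannot be set side by side. Array weights called 1286 genes in knockout lungs, 1888 for the difference and 1105 after saline, and with only the saline groups 37 were called. With single arrays left out, the counts over all genes ran from 211 to 796 in knockout lungs, 380 to 1052 for the difference, 24 to 112 after saline and 1653 to 3138 for genotype after bleomycin. The replicate block called 601 genes for the difference in place of 914, and it changed no call of a crosslinking gene. Among the other named genes it ended the knockout calls of F13a1 (adjusted p = 0.0650), Mfap5 (0.0516) and Tgfb3 (0.0572) and the difference of Colgalt2 (0.0718). Deviations of same-numbered arrays correlated at -0.297 to 0.203. The cause of these shifts was not tested. Dim signal limits Loxl4, Tgm1 after saline, Lox 1437903_at and Tgm2 1438942_x_at, whose levels were not far from that of Retnlb.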
